A study of Homo sapiens with 2 samples.

Results

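Glycolysis and the target genes of hypoxia-inducible factor (HIF) were examined in NK92 cells with and without exposure to PPMX-T003, an antibody that blocks transferrin receptor 1 (TfR1). The members were a named list of 37 genes, all of which were found by symbol among the 46425 symbols of the deposited table. They were placed in 7 groups by role, and 31 of them had at least 20 counts summed over both libraries, the minimum for giving a difference.

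NK92 is an established human natural killer (NK) cell line from an aggressive lymphoid neoplasm, and TfR1 is the receptor by which cells take up iron bound to transferrin. The cells came from this line and grew in Artemis medium with 2% human serum. After 18 h of pre-incubation they were divided equally between an exposed and a control dish with fresh medium. For the following 6 h the exposed dish had PPMX-T003 at 10 µg/mL in its medium, while the control dish (non-exposed) had no antibody. Stranded libraries of poly(A) RNA were sequenced, 1 per condition. The deposited columns carry the times 0 h and 6 h, whereas the methods describe the same culture time for both dishes, so a difference in harvest time and the exposure cannot be told apart. With 1 library per condition no difference has a replicate check. Intervals below are at 95% and cover counting error only: Clopper-Pearson for the differences of genes, Wilson for shares of the counts and a normal approximation for read ratios. All differences are between libraries, not conditions. Fewer cells with a transcript and less of it per cell cannot be told apart in bulk RNA.

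Glycolysis splits glucose into pyruvate in the cytosol, and lactate dehydrogenase turns pyruvate into lactate so that the pathway can go on. HIF is a transcription factor of an oxygen-regulated alpha subunit and the stable partner ARNT, and it drives many genes of glucose uptake and glycolysis. Iron belongs to this circuit, because the prolyl hydroxylases that mark the alpha subunit for VHL-dependent destruction carry iron in their active site, and activated NK cells rely on glycolysis for their effector functions.

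The non-exposed library held 46766416 counts and the exposed library 43178462. A count of 0 allows up to 3 counts, or 0.0641 and 0.0695 CPM (counts scaled to library size), by counting error alone. Of 19672 protein-coding symbols, 7202 (36.6%) were listed at 0 in both libraries, among them the widely expressed kinase gene EIF2AK4, chosen after its values were seen. A gene listed at 0 in this table may therefore not be absent from the cells. The label of the line was checked against its markers. All 12 NK cell markers were detected, among them NKG7, a cytotoxic granule protein, with 3215 and 3445 TPM (the level per transcript length) in the non-exposed and exposed libraries, the most abundant of the list. The summed level of the NK cell markers was 7196 and 7834 TPM. Of the 6 T cell markers, CD3D, CD3G, CD8B and CD5 were listed at 0, CD4 had 4 and 0 counts, and TRAC, the constant region of the T cell receptor alpha chain, had 75 and 69 TPM. The 3 erythroid markers and the 4 fibroblast and epithelial markers were listed at 0. Of the B cell markers, MS4A1 was listed at 0 and CD79A had 14 and 12 counts. Among the 4 myeloid markers S100A8 was the most abundant, with 176 and 126 counts (log2 fold change -0.36, -0.71 to -0.027), whereas CD14 had 0 and 7 counts, LYZ 2 and 0, and CSF1R 22 and 9.

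The glycolytic transcripts were abundant and differed little between the libraries. The 37 genes together took 1.614% of the counts in the non-exposed library (Wilson interval 1.610% to 1.617%) and 1.682% in the exposed library (1.678% to 1.686%). The 17 glucose transporters and glycolytic enzymes took 1.266% (1.263% to 1.269%) and 1.351% (1.348% to 1.354%), so that their share was higher in the exposed library by more than counting error. Per length, these 17 genes summed to 14803 TPM without and 15388 TPM with PPMX-T003. A set of 4 genes held most of this and of the lactate branch in both libraries, namely GAPDH, ENO1, PKM and LDHA, and these summed to 12790 and 13083 TPM.

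Of the 31 members tested, 2 were at least 1.2-fold higher in the exposed library, against 12.2% of all 13665 genes tested, and 2 were at least 1.2-fold lower, against 12.4%. No member was past 2-fold in either direction, against 2.64% of all genes. The interval lay above 0 for 11 members, or 35.5%, against 21.8% of all genes, and below 0 for 8 members, or 25.8%, against 23.9%. Deep coverage makes small differences pass counting error more often. Among genes with at least 10000 counts, a minimum chosen after the values were seen, 8 of 19 members (42.1%) were higher against 36.2% of 2231 genes, and 6 (31.6%) were lower against 40.3%. At this depth the members' shares were near those of all genes. The median log2 fold change was 0.02 over the tested members and -0.002 over all genes tested.

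By role the members did not move as 1 group. Of the 16 tested glucose transporters and glycolytic enzymes, 9 were higher beyond counting error and 1 was lower, with a median log2 fold change of 0.072. With at least 10000 counts, 8 of 13 (61.5%) were higher and 1 (7.69%) was lower, beside 36.2% and 40.3% of all genes of that depth. In the lactate and monocarboxylate group 0 of 3 were higher and 2 were lower, and of the 3 genes of the HIF machinery all 3 were lower. Of all genes tested, 21.8% were higher and 23.9% lower. The lactate group's median of -0.049 was 0.017 and -0.025 in the 2 regressions on GC content and length given below. That of the HIF machinery, -0.11, was -0.075 and -0.058. The other HIF targets were split, with 2 of 5 higher and 1 lower.

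Glucose enters these cells through facilitative transporters. SLC2A1 (GLUT1), the basal glucose transporter (gene ID 6513), had 4874 counts in the non-exposed library and 5147 in the exposed library, or 104 and 119 CPM, a log2 fold change of 0.20 (0.14 to 0.25). It stood at the 97.0th percentile of the genes with at least 10000 counts. SLC2A3 (GLUT3), a transporter with high affinity for glucose, had 111 and 112 CPM and differed by 0.02 (-0.037 to 0.077). The 2 transporters were at like levels per length, 69 and 65 TPM without and 76 and 63 TPM with PPMX-T003. Their read ratio, SLC2A1 to SLC2A3, which needs no scaling between libraries, was 0.941 in the non-exposed and 1.06 in the exposed library, a log2 difference of 0.18 (0.10 to 0.26), which was 0.043 after the trend with GC content and length, given below, was removed. This used the median over a gene's transcripts, and with the longest transcript it was 0.10; where 2 trend-removed values stand together below, they come in this order.

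In upper glycolysis, from glucose to the triose phosphates, 4 of 9 genes (44.4%) were higher, 1 was lower (11.1%) and 4 had intervals that held 0, beside 21.8% higher and 23.9% lower of all genes tested and 36.2% and 40.3% of those with at least 10000 counts. Their median of 0.043 turned to -0.041 and -0.015 with the trend removed, and in the first of these regressions 4 genes were above 0 in place of 7. The hexokinases trap glucose as its phosphate. HK1, the hexokinase of most tissues, was at 138 and 128 TPM and was lower by a small margin (221 and 213 CPM, -0.056, -0.10 to -0.015). HK2, the inducible isoform, was at 64 TPM in both libraries (162 and 167 CPM, 0.043, -0.0038 to 0.09), and at 0.094 and 0.076 with the trend removed. HK1 thus supplied 68.3% and 66.7% of the TPM of this pair. The read ratio of HK2 to HK1 was 0.731 and 0.783, higher by 0.10 (0.037 to 0.16) on the log2 scale. This difference was 0.14 in both regressions. GPI, which isomerises glucose phosphate to fructose phosphate, had 742 and 780 CPM (0.071, 0.05 to 0.093). It was at -0.052 and 0.068 with the trend removed, so its direction turned in 1 of the 2 regressions.

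Phosphofructokinase commits sugar to glycolysis, and the platelet isoform PFKP was the main form, with 72.5% and 71.2% of the TPM of the 3 isoforms. PFKP had 174 and 179 CPM, and its difference of 0.036 was within counting error (-0.0095 to 0.081). PFKL, the liver isoform, had 67.8 and 76.5 CPM and was higher by 0.17 (0.10 to 0.24). The read ratio of PFKL to PFKP was 0.389 and 0.428, so that the liver isoform gained on the platelet isoform by 0.14 (0.055 to 0.22) on the log2 scale, and by 0.083 and 0.10 with the trend removed. The muscle isoform PFKM was scarce, at 4 TPM in both libraries, with 246 and 228 counts (0.0076, -0.26 to 0.27).

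Aldolase splits the hexose into trioses. ALDOA, the main aldolase of muscle and many other cells, was at 1441 and 1546 TPM (966 and 1080 CPM) and was higher by 0.16 (0.14 to 0.17). ALDOC, the brain-type isoform, was at 2 TPM in both, with 67 and 55 counts (-0.16, -0.71 to 0.37). ALDOA shares exons with a readthrough gene, LOC112694756, that is counted apart and held 318 and 332 CPM (0.066, 0.033 to 0.10), so the division of reads between them is uncertain. TPI1, which interconverts the trioses, had 668 and 710 CPM (0.088, 0.065 to 0.11).

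In lower glycolysis, from the triose phosphates to pyruvate, 4 of the 5 detected genes (80%) were higher, beside 36.2% of all genes with at least 10000 counts, a depth that all 5 reached. GAPDH, the dehydrogenase that makes NADH and a high-energy phosphate, had 116774 and 118007 counts, or 2500 and 2730 CPM, a difference of 0.13 (0.12 to 0.14). This was 0.065 and 0.023 with the trend removed. ENO1, the enolase of most cells, had 3520 and 3790 CPM (0.11, 0.10 to 0.12) and was at 4083 and 4284 TPM. The neuronal enolase ENO2 was listed at 0 in both libraries. The phosphoglycerate mutase PGAM1 had 376 and 401 CPM (0.092, 0.061 to 0.12).

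PKM, the pyruvate kinase gene of proliferating cells and muscle, had 2300 and 2420 CPM (0.072, 0.059 to 0.084). PGK1, the kinase that makes the first ATP of the lower steps, had 34632 and 31639 counts, or 740 and 733 CPM. Its interval held 0 (-0.013, -0.035 to 0.0089). PGK1 shares exons with ATP7A, which is counted apart and had 1206 and 765 counts (-0.54, -0.67 to -0.41). The division of reads between them is uncertain. The read ratio of ALDOA to PGK1 was 1.31 in the non-exposed and 1.47 in the exposed library, a log2 difference of 0.17 (0.14 to 0.20). ALDOA had a GC content of 61.0% and PGK1 of 43.3%, and with the trend removed the direction turned (-0.028 and -0.027). PGK1 was then at 0.084 and 0.068, beside 0.075 and 0.027 for PGAM1, 0.056 and 0.016 for ENO1 and 0.017 and -0.0085 for PKM. Pseudogenes named after the members took few reads, at most 0.605% and 0.617% of the reads of their parent, for TPI1, among the genes of glycolysis.

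Lactate dehydrogenase has 2 main subunits. LDHA, the subunit that favours lactate production (gene ID 3939), had 98045 counts in the non-exposed library and 85970 in the exposed library, or 2090 and 1990 CPM, a log2 fold change of -0.072 (-0.086 to -0.059). LDHA was at -0.035 and -0.048 with the trend removed. LDHB, the subunit that favours pyruvate, had 497 and 499 CPM (0.0035, -0.023 to 0.03). Per length LDHA made up 71.2% and 70.2% of the pair, at 2120 and 1945 TPM. The read ratio of LDHB to LDHA was 0.237 and 0.25, higher by 0.076 (0.046 to 0.11) on the log2 scale, and by 0.058 and 0.023 with the trend removed. Against LDHA the read ratio of GAPDH went from 1.19 to 1.37, a difference of 0.20 (0.19 to 0.22), and that of ENO1 from 1.68 to 1.9, a difference of 0.18 (0.17 to 0.20). The difference for GAPDH was 0.10 and 0.071 with the trend removed, and that for ENO1 0.091 and 0.064. SLC16A1 (MCT1), a proton-coupled lactate transporter, had 279 and 270 CPM (-0.049, -0.085 to -0.013), and its direction turned with the trend removed (0.017 and 0.023). SLC16A3 (MCT4), the lactate exporter of highly glycolytic cells, was listed at 0 in both libraries. SLC16A1 was thus the only monocarboxylate transporter of the 2 members with reads.

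The regulatory kinases summed to 30 and 27 TPM. Pyruvate dehydrogenase kinases restrain the entry of pyruvate into the mitochondrial cycle. PDK1 had 665 and 579 counts (14.2 and 13.4 CPM, -0.082, -0.25 to 0.08) and PDK3 had 1638 and 1417 (35 and 32.8 CPM, -0.092, -0.20 to 0.012), both within counting error. The bifunctional PFKFB enzymes set the level of the activator of phosphofructokinase. PFKFB3 was the main form at 16 TPM in both libraries (30.1 and 32.2 CPM, 0.10, -0.012 to 0.20). PFKFB4 was lower beyond counting error but rested on few reads, 110 and 74 counts (-0.44, -0.90 to -0.016), and shares exons with UCN2, which had 6 counts in each library. PFKFB2 was listed at 0.

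All 3 genes of the HIF machinery were lower before the trend was removed. Among all genes tested 23.9% were lower, and 40.3% of those with at least 10000 counts. HIF1A, the oxygen-regulated alpha subunit, had 6038 and 5168 counts, or 129 and 120 CPM (-0.11, -0.16 to -0.053). ARNT, its partner, had 44.6 and 41.3 CPM (-0.11, -0.20 to -0.019), and was at -0.075 and -0.058 with the trend removed. VHL, which recognises the hydroxylated alpha subunit for destruction, had 121 and 108 CPM (-0.17, -0.23 to -0.12), at the 10.9th percentile of genes with at least 10000 counts. Each difference was under 1.2-fold, and the direction of HIF1A turned when the trend with GC content and length was removed. HIF1A is regulated largely at the protein level, which was not measured here.

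The remaining HIF targets went both ways. NDRG1, a stress-responsive gene induced in hypoxia and by iron shortage (gene ID 10397), had 160 counts in the non-exposed and 209 in the exposed library, or 3.42 and 4.84 CPM, a log2 fold change of 0.50 (0.20 to 0.81). ANKRD37, an ankyrin repeat gene induced by HIF, had 42 and 59 counts, or 0.897 and 1.37 CPM (0.58, 0.012 to 1.21). These were the 2 members past 1.2-fold on the higher side, and both were scarce, at 3 and 3 TPM for NDRG1 and 2 and 4 TPM for ANKRD37. ERO1A, the oxidase that drives disulfide formation in the endoplasmic reticulum, was the most abundant of this group at 93 and 79 TPM. It went the other way, with 9980 and 8139 counts, or 213 and 189 CPM (-0.18, -0.22 to -0.13).

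BNIP3L, a mitophagy receptor, had 388 and 371 counts, or 8.29 and 8.6 CPM (0.052, -0.16 to 0.26). VEGFA, the angiogenic growth factor, had 22 and 10 counts, and its difference was not detectable at this depth (-0.90, -2.26 to 0.12), although its point value was past 1.2-fold. BNIP3, the paralog of BNIP3L, the vasodilator peptide ADM and the carbonic anhydrase CA9, all well-known HIF targets, were listed at 0 in both libraries. Together with ENO2, SLC16A3 and PFKFB2 these were the 6 members listed at 0.

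The fold changes of all genes followed the GC content of their transcripts. When the genes were divided into 10 equal bins by GC content, the median log2 fold change was -0.13 in the lowest bin, up to 40.0%, and 0.12 in the highest, from 61.7%. Members stood on and off this trend. HIF1A had a GC content of 37.3%, ERO1A 44.7% and LDHA 45.0%, and all were lower, whereas PFKL had 67.8%, ALDOA 61.0% and GAPDH 56.7%, and all were higher. Against it, PFKFB4 with 56.8% was lower, and so were VEGFA with 60.7% and ALDOC with 55.5%, these 2 within counting error. After a regression on GC content and length the median of the glucose transporters and glycolytic enzymes was 0.036 in place of 0.072 (0.025 with the longest transcript), and 11 of 16 were above 0 in place of 13. Of the 19 members beyond counting error with at least 100 counts, 3 turned sign, HIF1A (0.047), GPI (-0.052) and SLC16A1 (0.017), and of the 11 within it PFKM, PFKP and PGK1 turned. When the regression instead used a gene's longest transcript, an alternative added after seeing the data, 4 of the 19 turned, TPI1 (-0.015), PKM (-0.0085), SLC16A1 (0.023) and HIF1A (0.013), and 5 of the 11, PFKM, PFKP, PGK1, LDHB and PDK1. SLC2A1 was at 0.10 and 0.17 in the 2 regressions, PFKL at 0.015 and 0.06, ALDOA at 0.056 and 0.041, VHL at -0.11 and -0.14, ERO1A at -0.15 and -0.054, NDRG1 at 0.39 and 0.44 and ANKRD37 at 0.46 and 0.47, all nearer to 0 than before, and PFKFB4 at -0.51 and -0.49. The NK cell markers moved as well: 8 of 12 (66.7%) were higher beyond counting error and 2 (16.7%) were lower, beside 21.8% and 23.9% of all genes tested, with a median of 0.14, and 0.061 and 0.06 after the regressions. GZMB, the cytotoxic protease granzyme B, had 732 and 884 CPM (0.27, 0.25 to 0.29), TBX21, a transcription factor of NK cell maturation, 344 and 408 CPM (0.25, 0.21 to 0.28), and GNLY, the granule protein granulysin, 71.8 and 83.9 CPM (0.22, 0.16 to 0.29). NCAM1 (CD56) with 231 and 218 CPM (-0.083, -0.12 to -0.043) and the receptor gene KLRC1 with 128 and 120 CPM (-0.089, -0.14 to -0.035) were lower. In the 2 regressions GZMB was at 0.22 and 0.16, TBX21 at 0.18 and 0.15, GNLY at 0.12 and 0.061 and NCAM1 at -0.078 and -0.027. In 1 of the 2 regressions KLRC1 (0.0066 and -0.066), the cytokine receptor gene IL2RB (-0.011 and 0.067, from 0.11) and NKG7 (0.033 and -0.01, from 0.16) turned sign. The part of GC content in the differences between libraries beyond this regression was not tested.

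Promoters were read for the core of the HIF response element, because members of this list are textbook HIF targets. RefSeq windows of the 250 bases before each annotated start (GRCh38.p14) were found for 30 of the 37 members, and 7 had no entry. The letters ACGTG, read on both strands, stood in the window of at least 1 start of 19 of these 30 genes (63.3%), against 21.7% of 27305 genes. By window this was 22 of 57 (38.6%) against 18.5% of 35116. The letters GCGTG were in 17 of 30 genes (56.7%) against 36.2% of genes, and in 33.3% of the members' windows against 32.2% of all windows. Among tested members with a window, the 15 with ACGTG had a median log2 fold change of 0.036, with 5 higher and 2 lower beyond counting error, and the 10 without it had 0.038, with 5 higher and 4 lower. Of all genes tested, 21.8% were higher and 23.9% were lower. The 2 medians were alike, and both sets held genes on either side. The split was by ACGTG alone, while 25 of the 30 genes (83.3%) held either motif, so it does not part HIF targets from other genes.

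The windows of 6 members are printed 5′ to 3′ in the direction of transcription, up to the first exon of any gene annotated in GENCODE 29, and the capitals mark both of these motifs on either strand, where a palindromic match on both strands makes 1 run. They were chosen to set pairs side by side: LDHA and its paralog LDHB, HK2 and PGK1, whose differences were within counting error before the trend was removed, and SLC16A3 and BNIP3, which were listed at 0. For a gene with several starts the window with most ACGTG was taken. They lie at chr11:18394313-18394387 (plus strand) for LDHA, chr12:21657972-21658092 (minus) for LDHB, chr2:74834920-74835169 (plus) for HK2, chrX:78103998-78104173 (plus) for PGK1, chr17:82228792-82229031 (plus) for SLC16A3 and chr10:131982014-131982173 (minus) for BNIP3, all upstream of the start.
LDHA: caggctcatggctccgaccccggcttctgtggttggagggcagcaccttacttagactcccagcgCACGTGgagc
LDHB: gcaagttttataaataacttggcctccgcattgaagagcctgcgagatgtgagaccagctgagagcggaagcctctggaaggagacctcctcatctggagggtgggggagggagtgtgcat
HK2: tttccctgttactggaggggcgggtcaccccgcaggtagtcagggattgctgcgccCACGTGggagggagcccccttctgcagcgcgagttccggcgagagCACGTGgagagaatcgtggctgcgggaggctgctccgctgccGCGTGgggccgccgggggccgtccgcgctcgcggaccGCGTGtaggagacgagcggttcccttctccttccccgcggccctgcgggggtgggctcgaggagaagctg
PGK1: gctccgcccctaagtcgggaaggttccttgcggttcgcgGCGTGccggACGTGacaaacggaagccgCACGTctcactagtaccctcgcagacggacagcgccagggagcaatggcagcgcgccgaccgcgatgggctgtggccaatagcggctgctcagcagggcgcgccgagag
SLC16A3: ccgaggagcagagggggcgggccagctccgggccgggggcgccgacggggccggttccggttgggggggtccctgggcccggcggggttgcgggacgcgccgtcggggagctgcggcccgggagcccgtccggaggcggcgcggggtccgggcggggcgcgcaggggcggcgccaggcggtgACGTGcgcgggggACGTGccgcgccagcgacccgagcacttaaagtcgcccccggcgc
BNIP3: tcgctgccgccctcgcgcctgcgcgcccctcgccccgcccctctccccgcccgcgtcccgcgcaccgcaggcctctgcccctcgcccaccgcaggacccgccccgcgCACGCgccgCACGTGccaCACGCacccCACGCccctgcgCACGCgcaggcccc
The printed stretches differ in length, from 75 to 250 bases, so their capital runs are not compared. Over the whole 250 bases and both strands, ACGTG matched 5 times for LDHA, 4 for HK2, 2 each for PGK1, SLC16A3 and BNIP3 and 0 for LDHB. A palindromic CACGTG counts here as 2 matches, 1 per strand, so matches are not numbers of separate sites. All matches of HK2 and BNIP3 lay in such palindromes, and none of those of PGK1 and SLC16A3 did. The genes are therefore not ranked by matches. A match is a description of letters and not of binding.

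Other genes of the same pathways were counted beside the members, and their shares can be read against the 21.8% higher and 23.9% lower of all genes tested. Of 29 tested genes among 45 others of glycolysis and pyruvate metabolism, 8 (27.6%) were higher beyond counting error and 9 (31%) were lower, with a median of -0.029 (0.0085 and 0.007 with the trend removed). Higher were TXNIP, which restrains glucose uptake (145 and 171 CPM, 0.24, 0.19 to 0.29), PDK2, another pyruvate dehydrogenase kinase (13.7 and 16.8 CPM, 0.29, 0.14 to 0.45), and G6PC3, a glucose phosphatase (29.3 and 33.6 CPM, 0.20, 0.089 to 0.30). Lower were SLC16A7 (MCT2), a monocarboxylate transporter (28.1 and 19.7 CPM, -0.51, -0.64 to -0.39), PDP2, which reactivates pyruvate dehydrogenase (78.1 and 57.3 CPM, -0.45, -0.52 to -0.37), and MPC1, a subunit of the mitochondrial pyruvate carrier (28.8 and 24.2 CPM, -0.25, -0.37 to -0.13). With the trend removed G6PC3 was at 0.075 and 0.056, PDK2 at 0.18 and 0.22, TXNIP at 0.30 and 0.28, PDP2 at -0.49 and -0.35, SLC16A7 at -0.43 and -0.29 and MPC1 at -0.22 and -0.28.

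The pentose phosphate pathway, which branches from glucose phosphate to make NADPH and ribose, had 6 of 13 tested genes higher (46.2%) and 3 lower (23.1%), with a median of 0.054 that was -0.00037 and -0.021 with the trend removed. PGLS, the lactonase of its oxidative branch, had 23.9 and 29.3 CPM (0.29, 0.18 to 0.41), and DERA, an aldolase that acts on deoxyribose phosphate, 8.89 and 11.7 CPM (0.39, 0.20 to 0.58). The isomerases RPE (153 and 137 CPM, -0.15, -0.20 to -0.10) and RPIA (121 and 115 CPM, -0.069, -0.12 to -0.013) and the ribose phosphate activating enzyme PRPS2 (76.3 and 72.1 CPM, -0.082, -0.15 to -0.012) were lower. PGLS therefore lay on the opposite side from RPE and RPIA, further down the pathway. After the regressions PGLS was at 0.12 and 0.084, DERA at 0.40 and 0.38, RPE at -0.16 and -0.05, RPIA at -0.048 and -0.10 and PRPS2 at -0.10 and -0.047.

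In the other HIF pathway machinery 3 of 15 tested genes (20%) were higher and 6 (40%) lower, with a median of -0.015 (-0.0065 and -0.019 with the trend removed). EPAS1 (HIF-2 alpha), HIF3A, ARNT2 and the prolyl hydroxylase EGLN3 were listed at 0, so HIF1A and ARNT were the HIF subunits with reads. EGLN1, the main oxygen-sensing prolyl hydroxylase, had 30 and 29.7 CPM (-0.015, -0.13 to 0.10), and EGLN2 had 72.1 and 80.2 CPM (0.15, 0.085 to 0.22), and -0.012 and 0.041 with the trend removed. ELOB, a subunit of the VHL ligase (83.9 and 92.2 CPM, 0.14, 0.072 to 0.20), and CITED2, which competes with HIF for its coactivator (24.7 and 27.3 CPM, 0.15, 0.027 to 0.26), were higher. ELOB was at 0.0011 and -0.037 with the trend removed, and CITED2 at 0.16 and 0.14. EP300, that coactivator (151 and 129 CPM, -0.23, -0.28 to -0.18), CUL2, the scaffold of the VHL ligase (27.8 and 23.7 CPM, -0.23, -0.35 to -0.12), and HIF1AN, the asparaginyl hydroxylase (151 and 137 CPM, -0.14, -0.20 to -0.095), were lower. With the trend removed EP300 was at -0.28 and -0.17, CUL2 at -0.082 and -0.13 and HIF1AN at -0.063 and -0.019. EGLN1, chosen for its role after its values were seen, did not differ beyond counting error, and was at 0.10 and 0.087 with the trend removed.

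Of 32 tested genes among 50 other HIF targets, 10 (31.2%) were higher and 5 (15.6%) lower, with a median of -0.015 (0.016 and 0.025 with the trend removed). MIF, a cytokine (270 and 323 CPM, 0.26, 0.23 to 0.29), and MXI1, an antagonist of MYC (12.1 and 14.7 CPM, 0.28, 0.11 to 0.44), were higher. The transcription factors FOXO3 (53.2 and 46.2 CPM, -0.20, -0.29 to -0.12) and FOSL2 (132 and 120 CPM, -0.14, -0.20 to -0.088) and the collagen-modifying enzyme PLOD1 (45.6 and 41.9 CPM, -0.12, -0.21 to -0.032) were lower. After removal of the trend MIF was at 0.09 and 0.039, MXI1 at 0.27 and 0.33, FOXO3 at -0.13 and -0.14, FOSL2 at -0.11 in both and PLOD1 at -0.24 and -0.20. The stress-responsive mTORC1 inhibitor DDIT4, also chosen after its values were seen, had 262 and 265 CPM and did not differ beyond counting error (0.018, -0.019 to 0.055), and was at -0.049 and -0.092 with the trend removed. TFRC, which encodes the antibody's target TfR1, had 407 and 422 CPM (0.052, 0.023 to 0.082), and 0.17 and 0.15 with the trend removed. Like the members, the larger list of HIF targets had genes on both sides and a median near 0.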

How the data were processed

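The members and the gene lists were chosen with earlier results of these data known. Per the submitters' processing notes, reads were trimmed with Trimmomatic 0.38, mapped to hg38 with HISAT2 2.2.0 and counted with StringTie 2.1.3b, and the authors named edgeR 3.17 for the comparison. The authors deposited whole read counts per gene, with commas inside large values that were stripped, so the unit was recorded here as a general one. The TPM values deposited by the authors were rounded to whole numbers and were treated as a score, used for levels between genes and as an alternative scaling. The 2 columns of FPKM were not used here.

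The 2 libraries were scaled by the trimmed mean of M-values (trimming 30% by log ratio and 5% by mean level, factors 1.00 and 1.00), and edgeR was not used. Python 3.11.15 was run with scipy 1.17.1, statsmodels 0.14.6, matplotlib 3.10.9, pandas 2.3.3 and numpy 2.4.6. Log2 fold changes were of CPM with a prior count of 2. The 95% Clopper-Pearson interval was taken on the fraction of each gene's reads that came from the exposed library. Intervals of read ratios used the normal approximation on the log scale. The code was checked on simulated data. GC content and length were medians over a gene's transcripts in GENCODE 29, known for 91.8% of tested genes and all 37 members, and a robust regression on both used 10161 genes with at least 200 counts. Promoter windows came from RefSeq.

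Named genes were every member, by values with at least 100 counts and otherwise by counts, and from each other list the 3 genes with at least 100 counts that were highest and the 3 that were lowest by the interval bound nearest 0. Some genes of these lists are not reported here. EGLN1, DDIT4, TFRC, EIF2AK4, LOC112694756, ATP7A, UCN2, IL2RB and NKG7 were named beyond this rule after their values were seen. So were, with few or no reads, EPAS1, HIF3A, ARNT2, EGLN3 and markers of other cell types. Alternatives were scaling by upper quartile, by library size or by median of ratios, deposited TPM with a pseudocount of 1, prior counts of 0.5 and 5, count minimums of 1 and 200, thresholds of 1.1-fold and 1.5-fold, and the regression. The regression on the longest transcript and the list without members that share exons were added after seeing the data.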

Additional observations from a re-analysis of the deposited data

How the results depend on the processing

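No paired analysis was possible because PPMX-T003 and control have 1 library apiece, and leaving out a library was not possible for the same reason. Of the values of the 7 counts and medians under the alternatives, 62 stayed within the tolerance (1.5 times for a count, the median interval for a median) and 13 did not. At least 1.2-fold, 2 members were higher and 2 lower. With deposited TPM this was 1 and 1, namely ANKRD37 (0.74) and PDK1 (-0.49). PDK1 was not among the 2 lower by counts, where it was at -0.082 and within counting error. Its TPM were rounded to 6 and 4. NDRG1 and PFKFB4 were at 0 with deposited TPM. With at least 200 counts, 1 was higher and 0 were lower, because scarce members leave. At 1.1-fold it was 5 and 5, at 1.5-fold 0 and 1, and without the 9 members that share exons 1 was lower. The median of the glucose transporters and glycolytic enzymes, 0.072, was 0.036 with GC content and length removed, 0.025 with the longest transcript and 0.018 with deposited TPM. Lower members beyond counting error fell from 8 to 5 with the longest transcript. The cause was not tested. TPM gives no counting interval. Among the 19 members beyond counting error, signs turned under the 2 regressions, for GPI (-0.052), SLC16A1 (0.017) and HIF1A (0.047) with median transcripts, and for TPI1 (-0.015), PKM (-0.0085), SLC16A1 (0.023) and HIF1A (0.013) with the longest, and under no other alternative run. Among the 11 within it, signs turned for 3 and 5 under these regressions, 3 with deposited TPM and 2 with median-of-ratios scaling. Median-of-ratios and library-size scaling and both prior counts left all 30 named members inside their intervals. Upper-quartile scaling moved 2 of them outside and deposited TPM 21, with a median shift of -0.054 in genes of at least 20 TPM. Reads shared by overlapping genes were divided by an estimate whose error the intervals do not cover, and members under 200 counts allow only coarse statements.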
